A study of Mus musculus with 4 samples.

Results

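The G2 and mitosis genes described here were 40 genes that cells use to enter and complete mitosis, among them the cyclins and kinases that drive entry, the kinetochore and spindle proteins, the cytokinesis proteins and the proliferation markers Mki67 and Top2a. They were chosen as a list of gene symbols, and 40 of 40 were matched among the 18605 genes that the tables of all 4 libraries share. Their levels were read by single-cell RNA sequencing (scRNA-seq) of mouse tumors raised under the skin from the cancer line LLC (Lewis lung carcinoma) in female C57/BL6N mice of 6 to 8 weeks. Hypofractionated radiotherapy (RT) was given once tumors measured about 100 mm3, on days 7 to 9, as 3 fractions of 8 Gy (24 Gy in all), and cells were taken 72 h later. RT1, RT2 and RT3 were 1 tumor each. The radiation naive group (NT) received mock treatment and was 1 library made from 3 pooled tumors, so that the spread between NT tumors could not be read and no test between NT and RT was possible. All 4 libraries came from tumors of the same injected line, and no other genotype or agent was part of the scRNA-seq experiment.

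The authors deposited unique molecular identifier (UMI) counts, each UMI standing for 1 captured RNA molecule, for 10141 cell barcodes with 69667759 UMIs in NT, 15346 with 78585759 in RT1, 14994 with 108699844 in RT2 and 15324 with 85660188 in RT3. The table of RT2 differed from the others before any result was computed. It listed 18605 genes by symbol alone where the others listed 32285 with identifiers, and none of its barcodes exceeded 11.95% mitochondrial UMIs, whereas the others reached 91.5 to 97.0%. Values without RT2 are therefore given where they bear on a result. Between 182 and 277 barcode sequences were shared by each pair of libraries. After cells with fewer than 200 genes or more than 20% mitochondrial UMIs were removed, 9976 cells remained in NT, 15029 in RT1, 14993 in RT2 and 15060 in RT3.

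Entry into mitosis is driven by Cdk1 bound to cyclin A or cyclin B, and the genes of this program are switched on late in the cell cycle, after DNA replication. In resting cells they are held down by the DREAM complex, which sits at CHR elements (TTTGAA or TTCGAA) of their promoters, and in cycling cells B-Myb and Foxm1 act with the same MuvB core, often beside CCAAT boxes bound by NF-Y. DNA damage stops cells before mitosis, and p53 with its target Cdkn1a (p21) shifts these promoters back to the repressed state. Mature macrophages mostly divide little, although tissue macrophages can proliferate locally, whereas activated T and NK cells divide rapidly.

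A feature that the choice of these genes did not use was their promoter sequence. Windows of 300 bases, from 250 before to 50 after the transcript start, were found in RefSeq (GRCm38.p6) for 34 of the 40 genes. Both strands were searched, so that TTTGAA also reads TTCAAA and CCAAT also reads ATTGG. A CHR element (TTTGAA or TTCGAA) was present in 27 of 34 genes (79.4%), against 5854 of all 27025 genes with a window (21.7%). A CCAAT box was present in 26 of 34 (76.5%, against 41.1% of all genes), and both together in 23 of 34 (67.6%, against 8.61%). Of the genes with a window, Birc5, Ccnb1, Cenpe, Cks2, Nuf2, Nusap1 and Pttg1 had no CHR letters in it. A match describes the letters and not a bound site. The promoters below are shown because Top2a and Cdk1 were the most abundant of these transcripts in tumor cells of NT, and Mki67 and Ccnb2 had the lowest and the highest ratio of RT over NT there. Each is printed 5′ to 3′ on the strand of its gene, with CHR letters and CCAAT boxes of either strand in capitals. All 4 genes lie on the minus strand, Top2a at chr11:99024140-99024439, Cdk1 at chr10:69352863-69353162, Mki67 at chr7:135716330-135716629 and Ccnb2 at chr9:70421505-70421804.
Top2a: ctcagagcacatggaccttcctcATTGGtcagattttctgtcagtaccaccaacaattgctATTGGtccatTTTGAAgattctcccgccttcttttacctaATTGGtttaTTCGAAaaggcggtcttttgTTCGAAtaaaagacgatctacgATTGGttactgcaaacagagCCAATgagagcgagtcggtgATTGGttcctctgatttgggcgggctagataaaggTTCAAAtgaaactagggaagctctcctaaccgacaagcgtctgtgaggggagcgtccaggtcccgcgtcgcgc
Cdk1: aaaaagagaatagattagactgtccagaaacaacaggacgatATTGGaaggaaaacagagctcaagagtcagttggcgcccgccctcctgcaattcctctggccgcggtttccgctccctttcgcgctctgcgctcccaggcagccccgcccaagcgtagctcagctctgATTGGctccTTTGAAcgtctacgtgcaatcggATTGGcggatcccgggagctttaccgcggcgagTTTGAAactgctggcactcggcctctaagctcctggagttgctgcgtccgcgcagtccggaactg
Mki67: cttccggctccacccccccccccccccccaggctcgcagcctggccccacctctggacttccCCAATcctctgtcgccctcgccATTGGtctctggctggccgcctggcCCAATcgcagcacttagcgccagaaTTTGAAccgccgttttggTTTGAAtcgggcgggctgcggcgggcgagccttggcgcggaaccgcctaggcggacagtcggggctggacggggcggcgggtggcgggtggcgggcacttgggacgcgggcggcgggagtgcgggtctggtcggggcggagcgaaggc
Ccnb2: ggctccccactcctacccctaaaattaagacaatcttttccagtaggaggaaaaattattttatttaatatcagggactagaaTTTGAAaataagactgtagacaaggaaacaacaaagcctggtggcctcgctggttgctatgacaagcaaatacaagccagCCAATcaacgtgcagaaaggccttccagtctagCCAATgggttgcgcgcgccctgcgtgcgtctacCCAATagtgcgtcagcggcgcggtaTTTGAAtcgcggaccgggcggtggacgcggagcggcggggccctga

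To ask which cells carried these transcripts, cells were clustered without any cell cycle gene among the genes that built the clusters, and the 18 clusters were named by markers of 8 cell types. Tumor cells were named by 6 markers with Rhox5, a homeobox gene, as the most abundant, and their summed level was 2530.4, 2599.9, 2602 and 2573 CPM (UMIs of the genes as a part of all UMIs of the population, on the CPM scale) in NT, RT1, RT2 and RT3. Cells with these markers were present in every library. As the same markers named the clusters, their level there is no separate check of the name. Clusters of macrophages, monocytes, lymphocytes, neutrophils, dendritic cells, fibroblasts and endothelial cells each stood above the mean of clusters in at least 7 of their markers, while 3 clusters stayed unnamed. Tumor cells numbered 6143, 6012, 5021 and 7257 in NT, RT1, RT2 and RT3, macrophages 687, 2593, 2533 and 1480, monocytes 581, 1985, 2163 and 1940, and lymphocytes 379, 359, 597 and 335. Because the kit counts molecules at the 3′ end, CPM values were not divided by transcript length.

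Of the named populations tumor cells held the most of the 40 genes together, and their summed level was 5430.1 CPM in NT, 5275 in RT1, 4078 in RT2 and 4964 in RT3. Of tumor cells, lymphocytes, macrophages and monocytes, lymphocytes came next with 3714 CPM in NT, 2826 in RT1, 2761 in RT2 and 3186 in RT3. Macrophages held 1577 CPM in NT, 602 in RT1, 463 in RT2 and 598 in RT3, and monocytes 747 CPM in NT, 702 in RT1, 652 in RT2 and 649 in RT3. NT macrophages thus stood at 29.04% of the tumor cell level of their own library, while the macrophages of the RT libraries stood at 11.4, 11.3 and 12.05%. The order of tumor cells, lymphocytes and macrophages was the same in each library, and the macrophage and monocyte levels crossed, macrophages being higher in NT and lower in RT1, RT2 and RT3.

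**Figure D1:**
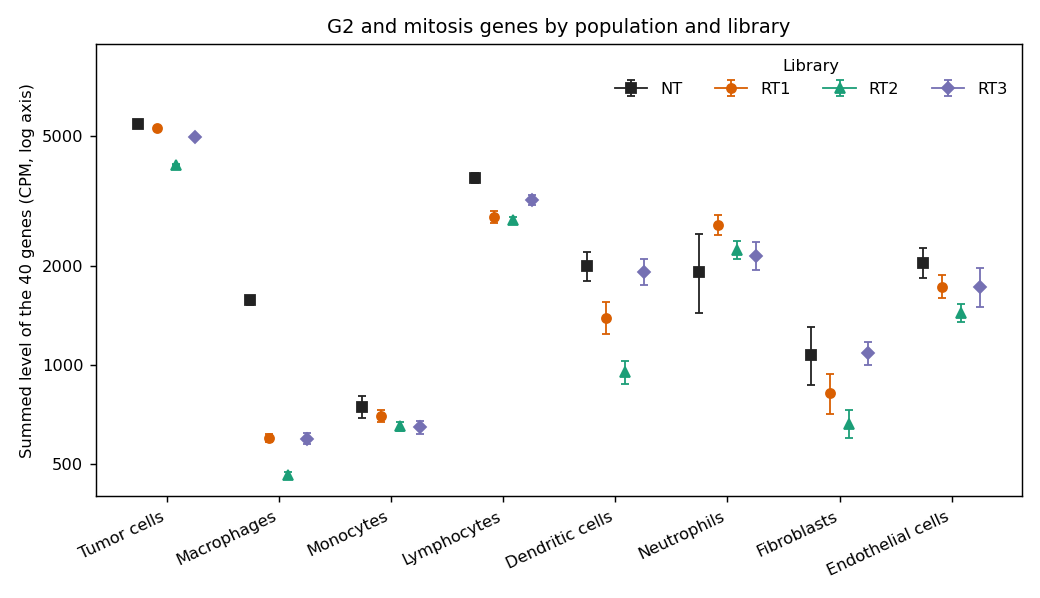
Summed CPM of the 40 genes (vertical axis, log scale, CPM) in 8 populations of the NT, RT1, RT2 and RT3 libraries, with exact 95% Poisson intervals that cover counting error only. Macrophages of NT lie at 1577 CPM against 463 to 602 CPM in the RT libraries, whereas tumor cells lie between 4078 and 5430 CPM.

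Differences between populations were tested over the 4 libraries with edgeR's quasi-likelihood test on summed UMIs, with the library as a block and Benjamini-Hochberg adjustment over all genes tested. NT and RT libraries enter these tests together. Tumor cells exceeded macrophages in 39 of the 40 genes and were lower in 0, where 40.1% of all 13053 genes tested were higher in tumor cells and 37.3% lower. The median log2 difference was 2.35 over the 40 genes and 0.07 over all genes. Anln, a septin and actin scaffold of the cleavage furrow, differed most (log2 3.01, adjusted p = 4.2e-07 by edgeR), followed by the cytokinesis gene Ect2 (log2 2.94, adjusted p = 7.1e-08 by edgeR) and the anaphase activator Cdc20 (log2 2.94, adjusted p = 1.2e-07 by edgeR). Mki67 and Aurkb were among the smallest differences that passed (log2 1.28, adjusted p = 0.000927 and log2 1.63, adjusted p = 1.4e-05 by edgeR). Pttg1, which encodes securin, the inhibitor of separase, was the gene that missed the threshold (log2 0.15, adjusted p = 0.307 by edgeR). Its level was 95.5, 131, 109 and 115 CPM in tumor cells and 46.9, 76.6, 84.4 and 67.8 CPM in macrophages of NT, RT1, RT2 and RT3, tumor cells being higher in every library on this scale. The log2 values of the test are relative to TMM factors, which center the genes of each population. On total UMIs alone the median of all genes was 0.64 in place of 0.07, Pttg1 had log2 0.71, adjusted p = 0.000411 by edgeR, and 40 of the 40 genes were higher in tumor cells, beside 7528 higher and 3318 lower genes of all. For lymphocytes against macrophages the same scaling gave a median of 0.45, with 39 of 39 genes higher beside 4775 higher and 2074 lower of all 9658. Between macrophages and monocytes it left 1 of 37 genes higher and 2 lower. Of all 9843 genes tested there, 1987 were higher and 2221 lower, in place of 2228 and 2076.

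Lymphocytes exceeded macrophages in 37 of 39 genes tested and were lower in 0, against 30.8% of all genes higher and 32.6% lower. Kif11, the motor that pushes spindle poles apart, differed most (log2 2.53, adjusted p = 2.9e-05 by edgeR), with the centromeric histone Cenpa (log2 2.39, adjusted p = 3.0e-06 by edgeR) and the spindle protein Nusap1 (log2 2.24, adjusted p = 1.7e-05 by edgeR) after it. At the other end stood Pttg1 (log2 0.12, adjusted p = 0.548 by edgeR), the microtubule depolymerase Kif2c (log2 0.74, adjusted p = 0.088 by edgeR), and Anln (log2 0.86, adjusted p = 0.00213 by edgeR). Lymphocytes were few and held transcripts of tumor markers. The 6 tumor markers summed to 611, 506, 417 and 660.4 CPM in NT, RT1, RT2 and RT3, which was 24.1, 19.5, 16.01 and 25.7% of the tumor cell level, against 68.4, 53.6, 67.7 and 64.2% for the 40 genes. The most abundant tumor marker, Rhox5, was at 283, 252, 190 and 314 CPM over all lymphocytes. In CD8 T cells, told apart by a second clustering, it was at 44.4, 106, 49.1 and 84.4 CPM. In NK cells it was at 51.0, 60.1, 37.0 and 33.9 CPM. Tumor markers were thus not spread evenly over lymphocytes. How much of the lymphocyte level came from tumor cell RNA was not tested.

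Few of the genes passed between macrophages and monocytes. Pttg1 was higher in macrophages (log2 0.42, adjusted p = 0.0117 by edgeR), and the Cdk1 partner Cks2 (log2 -0.75, adjusted p = 3.9e-05 by edgeR) and Cenpa (log2 -0.57, adjusted p = 0.0302 by edgeR) were lower, which made 1 and 2 of 37 genes where 22.6% of all genes were higher and 21.1% lower. Cdc20 (log2 0.55, adjusted p = 0.126 by edgeR) and Cdk1 (log2 0.47, adjusted p = 0.0571 by edgeR) had the largest differences toward macrophages beside Pttg1 and missed the threshold. Toward monocytes, Cenpf came after Cks2 and Cenpa and missed it as well (log2 -0.47, adjusted p = 0.0636 by edgeR). This comparison depended on NT. Without the NT library 10 of 38 genes were lower in macrophages than in monocytes and 1 was higher, beside 2351 lower and 2551 higher of all 10380 genes tested in that fit.

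To compare NT with RT within a population, each RT library was set over NT as a log2 ratio of CPM. A gene with at least 80 UMIs over the 4 libraries was counted as lower or higher when its log2 ratio was past 0.5 in the same direction in RT1, RT2 and RT3. The 3 ratios share the NT library, so their agreement does not measure the spread between NT tumors. The ± values are SDs over the 3 RT libraries. UMIs were read at the 3' end of transcripts, so levels of different genes are counts of molecules and not per length. From a sum alone, fewer cells with these transcripts and fewer transcripts per cell cannot be told apart.

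Tumor cells carried these transcripts at a level close to that of NT 72 h after radiation. The summed level was 4773 ± 621 CPM (SD, n = 3) in RT against 5430 CPM in NT, a mean log2 ratio of -0.19 ± 0.19, and of the RT libraries RT2 was lowest. Without RT2 the ratio was -0.09. Over the alternatives that keep the 3 RT libraries it was -0.32 to -0.16, the former with a cluster led by Ramp2, Islr and Lum counted as tumor cells. By the size rule 1 of 40 genes was lower, where 1.46% of all genes were, and 0 were higher, where 8.46% of all genes were. The median ratio was -0.23 over the 40 genes and -0.02 over all genes. At any size, 23 genes were lower in all 3 RT libraries (30.4% of all genes) and 4 were higher (30.3% of all genes).

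Of the genes of chromosome structure, Mki67, which coats mitotic chromosomes, was the gene that passed the rule in tumor cells. It was counted at 114 CPM in NT, 80.3 in RT1, 56.7 in RT2 and 75.6 in RT3, with every RT library below NT and a log2 ratio of -0.71 ± 0.27. Without the 8% highest doublet scores this call was lost at a log2 ratio of -0.70, and 0 genes were lower (1.48% of all genes). Top2a, the topoisomerase that untangles sister chromatids, had 515, 435, 281 and 368 CPM in NT, RT1, RT2 and RT3 (log2 -0.53 ± 0.32). All RT libraries were again below NT, but RT1 by less than the rule asks.

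The cyclins and Cdk1 were close to NT in tumor cells. Cdk1 itself was 357, 379, 307 and 337 CPM (log2 -0.07 ± 0.15), and its partner Ccna2 (cyclin A) was 342, 310.5, 223 and 277 CPM (log2 -0.35 ± 0.24). Ccnb1 (cyclin B1) had 172, 189, 131 and 170.4 CPM (log2 -0.09 ± 0.27), so that the RT libraries lay on both sides of NT, as they did for Cdk1. Ccnb2 (cyclin B2), in contrast, was 163, 248, 164 and 202 CPM (log2 0.31 ± 0.30), with RT2 level with NT and RT1 well above it. As a group, the 7 cyclins and Cdk1 partners summed to 1427, 1531, 1159 and 1402 CPM (log2 -0.07 ± 0.21).

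Among the mitotic kinases, Plk1, which acts from mitotic entry to cytokinesis, had 101, 96.04, 68.8 and 87.9 CPM (log2 -0.28 ± 0.25) and the centrosomal kinase Aurka 81.96, 81.8, 65.1 and 83.9 CPM (log2 -0.10 ± 0.20). In RT2 both were lowest, while Aurka of RT1 and RT3 was at the NT level. Aurkb, the kinase of the chromosomal passenger complex, was 84.9, 101, 69.9 and 79.02 CPM (log2 -0.04 ± 0.27), and its partner Birc5 (survivin) 341, 296, 283 and 319.5 CPM (log2 -0.19 ± 0.09). Birc5 was below NT in every RT library, whereas Aurkb was above NT in RT1.

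Kinetochore and spindle genes included members on both sides of NT. The Ndc80 complex binds microtubules at kinetochores, and its subunit Spc24 had 119, 68.7, 88.9 and 82.2 CPM (log2 -0.59 ± 0.19), all RT libraries being below NT. Its partner Ndc80 had 36.6, 42.4, 36.6 and 43.2 CPM (log2 0.15 ± 0.13), level with NT in RT2 and above it in RT1 and RT3. For Kif11 the values were 52.1, 40.9, 31.1 and 37.7 CPM (log2 -0.52 ± 0.20), below NT in each RT library.

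Genes of the anaphase promoting complex and of cohesion were the role group with a ratio above 0 in tumor cells, at 342, 398, 387 and 367 CPM (log2 0.17 ± 0.06). Ube2c, the ubiquitin-conjugating enzyme of that complex, had 151, 184, 195 and 165 CPM (log2 0.26 ± 0.12), and Pttg1 95.5, 131, 109 and 115 CPM (log2 0.30 ± 0.14). Both were above NT in every RT library without reaching the size rule. Cdc20, which activates the same complex, was 62.4, 56.3, 61.04 and 58.1 CPM (log2 -0.09 ± 0.06), slightly below NT in each.

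**Figure D2:**
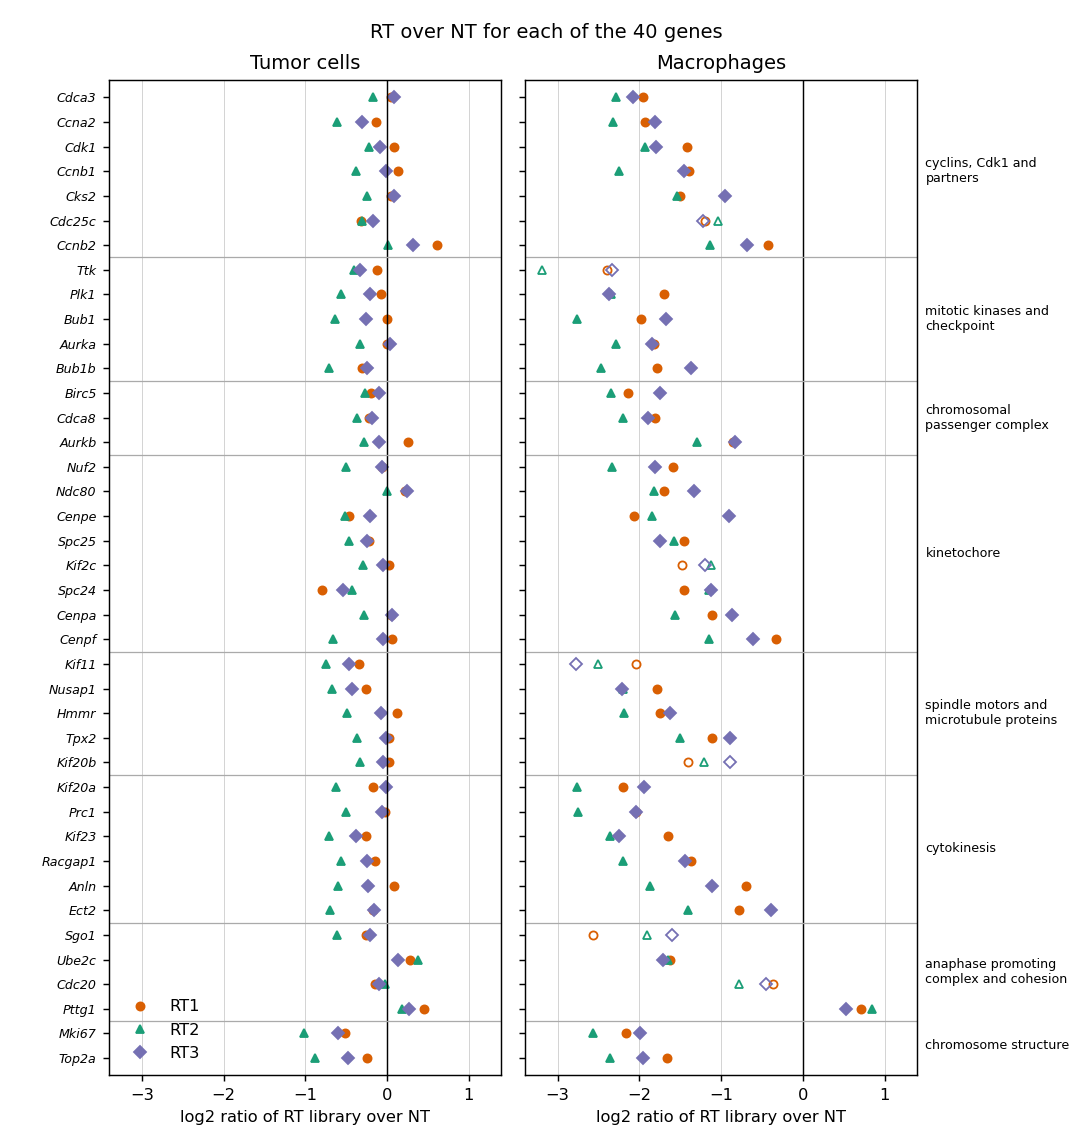
log2 ratio of each RT library over NT (horizontal axis) for the 40 genes, ordered by role, in tumor cells (left) and macrophages (right), with open symbols for genes under 20 UMIs in at least 1 library. In tumor cells more points lie left of 0 than right of it, with RT2 lowest for most genes. In macrophages Pttg1 is the gene to the right of 0.

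Tumor cells consisted of 6 clusters, and the ratio was not the same in all of them. The cluster with the highest level was 6925 CPM in NT, 6336 in RT1, 5622 in RT2 and 6289 in RT3 (log2 -0.19 ± 0.10), and a second cluster with abundant cell cycle transcripts was 6381 CPM in NT, 6136 in RT1, 4829 in RT2 and 5901 in RT3 (log2 -0.19 ± 0.19). A cluster led by the interferon-induced genes Igtp, Iigp1 and Tgtp1 had 4629.8, 4116, 2909 and 3821 CPM (log2 -0.37 ± 0.26), lower than NT in every RT library. Its ratio was shared by further tumor cell clusters. These had 4514, 3595, 3053 and 3859 CPM (log2 -0.37 ± 0.17) and 4397, 4009, 2697 and 3653 CPM (log2 -0.37 ± 0.30), also lower than NT in every RT library. The cluster led by the matrix genes Dpt and Fn1 and by Cp was the exception, with 961, 2281, 1225 and 2369 CPM (log2 0.97 ± 0.53) and every RT library above NT. In that cluster 5.69% in NT, 16.2% in RT1, 8.91% in RT2 and 19.1% in RT3 of cells had at least 5 UMIs of the 40 genes after each cell was thinned to 2000 UMIs. Its cells numbered 953 in NT, 875 in RT1, 823 in RT2 and 1316 in RT3. An unnamed cluster led by Ramp2, Islr and Lum, with the 6 tumor markers at 83.1 to 89.4% of the tumor cell level, held 1469.8, 1165, 524 and 1522 CPM (log2 -0.59 ± 0.80), with RT2 far below the others. The clusters took different shares of the libraries, so the ratio over all tumor cells mixes levels within clusters with their sizes.

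Of these 4 populations, macrophages had the ratio farthest from 0. Their summed level was 554 ± 79.2 CPM (SD, n = 3) in RT against 1577 CPM in NT (exact 95% Poisson interval 1529 to 1627 CPM), a mean log2 ratio of -1.52 ± 0.22. Without RT2 the ratio was -1.39. By the size rule 32 of 37 genes tested were lower, where 7.74% of all genes were, and 1 was higher, where 11.6% of all genes were. The 37 are those with enough UMIs, and Cdc25c, Sgo1 and Ttk were not among them. The median ratio was -1.70 over the 37 genes and 0.01 over all genes. Ccnb2, Cenpf, Cdc20 and Ect2 were below NT in every RT library without passing the rule in all of them. A cluster of 142, 583, 542 and 301 cells in NT, RT1, RT2 and RT3 was named macrophages by its markers but was led by mast cell genes (Cma1, Cpa3 and Mcpt4). Without it the log2 ratio was -1.57, 32 of 37 genes were lower (7.84% of all genes) and 0 were higher (11.4% of all genes).

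Cdk1, level with Top2a, was the most abundant of the 40 genes in NT macrophages, at 131 CPM in NT, 49.3 in RT1, 34.4 in RT2 and 37.6 in RT3 (log2 -1.71 ± 0.27). Ccna2 had 83.6, 21.9, 16.7 and 23.9 CPM (log2 -2.02 ± 0.27) and Ccnb1 47.7, 18.1, 10.03 and 17.4 CPM (log2 -1.70 ± 0.48). NT was far above every RT library for each of these genes. Ccnb2 differed less, with 27.2, 20.3, 12.3 and 16.9 CPM (log2 -0.75 ± 0.36), and its NT interval of 21.2 to 34.4 CPM reached close to RT1.

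Summed over the genes of a role, chromosome structure genes and mitotic kinases had the lowest ratios in macrophages. Mki67 was 70.2, 15.6, 11.8 and 17.6 CPM (log2 -2.25 ± 0.30), and Top2a 129, 40.6, 25.1 and 33.1 CPM (log2 -1.995 ± 0.35). Plk1 had 38.6, 11.9, 7.58 and 7.44 CPM (log2 -2.14 ± 0.39) and Aurka 29.2, 8.26, 5.97 and 8.11 CPM (log2 -1.98 ± 0.26). NT was the highest library for each of these genes and did not overlap with RT1, RT2 or RT3. In the passenger complex, Birc5 was in the same range with 115, 25.9, 22.6 and 34.3 CPM (log2 -2.08 ± 0.31), whereas Aurkb was 31.1, 17.2, 12.7 and 17.6 CPM (log2 -0.99 ± 0.26), closer to NT than its partner.

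Of the cytokinesis genes, the central spindle motor Kif20a had 29.6, 6.43, 4.36 and 7.66 CPM (log2 -2.30 ± 0.42), and the microtubule bundler Prc1 48.1, 11.7, 7.12 and 11.7 CPM (log2 -2.28 ± 0.41). Both were lower in RT than in NT by more than the group as a whole, whose log2 ratio was -1.80 ± 0.43. Ect2 was 13.01, 7.57, 4.90 and 9.91 CPM (log2 -0.86 ± 0.51), and RT3 lay within its NT interval of 8.95 to 18.3 CPM. At the kinetochore, Cenpa had 95, 43.9, 32 and 52.1 CPM (log2 -1.18 ± 0.36), and Cenpf, a large protein of the outer kinetochore, 13.8, 11.01, 6.20 and 9.01 CPM (log2 -0.70 ± 0.42). Cenpf of RT1 was inside the NT interval of 9.61 to 19.2 CPM, while Cenpa of every RT library was below that of NT.

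Genes around the anaphase promoting complex went in opposite directions in macrophages. Ube2c had 46.5, 15.03, 14.8 and 14.2 CPM (log2 -1.67 ± 0.04), with 3 RT libraries that hardly differed. Cdc20 was 7.10, 5.51, 4.13 and 5.18 CPM (log2 -0.53 ± 0.22), at fewer than 20 UMIs in NT. Pttg1 was the gene counted as higher, at 46.9 CPM in NT, 76.6 in RT1, 84.4 in RT2 and 67.8 in RT3 (log2 0.70 ± 0.16), and its NT interval of 38.9 to 56.1 CPM did not reach any RT library. This call did not hold without the cluster led by mast cell genes, where its log2 ratio was 0.64, or at clustering resolution 1.2, where it was 0.60.

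The number of macrophages with many of these transcripts was read after thinning each cell to 2000 UMIs and counting cells with at least 5 UMIs of the 40 genes. This share was 15.5% in NT (73 of 471 cells, 12.3 to 19.1%), with exact Clopper-Pearson 95% intervals that cover counting error only. It was 2.60% in RT1 (42 of 1618 cells, 1.88 to 3.49%), 1.67% in RT2 (32 of 1916 cells, 1.15 to 2.35%) and 1.83% in RT3 (16 of 874 cells, 1.05 to 2.96%). The NT interval lay above all 3 RT intervals. Cells under 2000 UMIs were left out, which were 216 macrophages in NT, 975 in RT1, 617 in RT2 and 606 in RT3, and without thinning the shares were 19.2% in NT, 5.67% in RT1, 7.22% in RT2 and 5.47% in RT3. Cells within 1 UMI of the cut made up 0.939 to 2.76%. Macrophages over the cut held a similar number of these UMIs in each library, a mean of 12.9, 11.4, 11.9 and 10.8 per cell in NT, RT1, RT2 and RT3, while macrophages under it held 0.729, 0.706, 0.555 and 0.748. The cut was set on these same UMIs, so these means depend on it and do not measure the level per cell on their own.

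Tumor cell shares over the same cut were 54.9% in NT, 60.4% in RT1, 46.3% in RT2 and 55.9% in RT3, and NT lay within the range of the RT libraries. With the unnamed cluster led by Ramp2, Islr and Lum counted as tumor cells they were 48.4% in NT, 48.1% in RT1, 32.6% in RT2 and 47.1% in RT3, NT being above every RT library. In monocytes they were 6.80% in NT, 5.48% in RT1, 3.81% in RT2 and 4.62% in RT3, so that macrophages of RT1, RT2 and RT3 were below the monocyte shares of their libraries and NT macrophages were above theirs. Neutrophils do not divide in tissue and should lack these transcripts, yet 2 of 3 neutrophils of at least 2000 UMIs in NT passed the cut, as did 28.0% of 25 in RT1, 38.1% of 21 in RT2 and 26.7% of 15 in RT3, all at higher median depth than macrophages. Over all neutrophils, the 6 tumor markers stood at 44.9, 56.3, 45.9 and 63.9% of the tumor cell level, and their part in these shares was not tested. The share in macrophages did not exceed that of neutrophils in any library, and over such small numbers the neutrophil share gives no firm background.

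**Figure D3:**
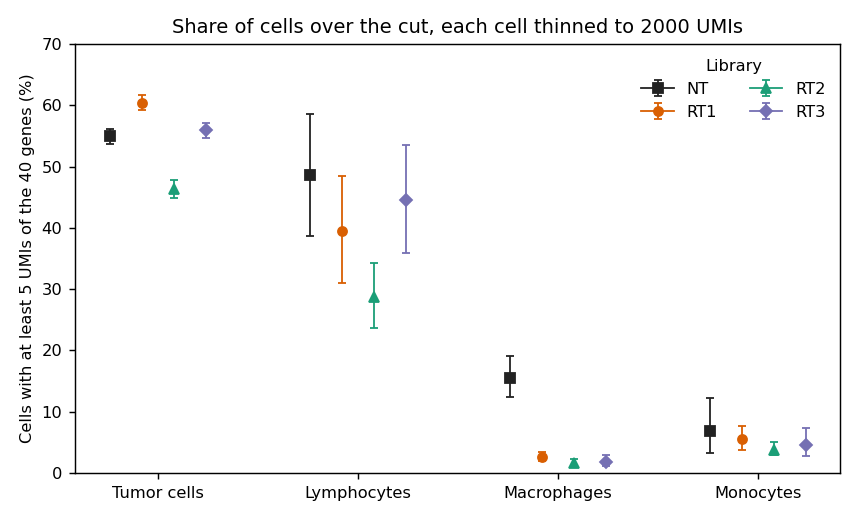
Share of cells (vertical axis, %) with at least 5 UMIs of the 40 genes after thinning each cell to 2000 UMIs, with exact Clopper-Pearson 95% intervals, in 4 populations of each library. In macrophages NT lies at 15.5% and the RT libraries between 1.67 and 2.60%, without overlap of the intervals.

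Markers of tumor cells were read in the same macrophages. The 6 markers summed to 102, 154, 140.0 and 230.3 CPM in NT, RT1, RT2 and RT3, with Rhox5 the most abundant in each, which was 4.03, 5.90, 5.38 and 8.95% of the tumor cell level. They were therefore higher in the RT libraries, where the 40 genes were lower. Within macrophages over the cut these markers were at 48.5, 552, 698 and 865 CPM, against 99.7, 117, 108 and 188 CPM under it. In NT the cells over the cut thus had fewer tumor cell transcripts than the rest, and in the RT libraries they had more. High doublet scores were found in 2.74, 11.9, 28.1 and 12.5% of macrophages over the cut and in 1.26, 2.41, 2.39 and 2.80% of those under it. Macrophage markers were at 7733, 10976, 10588 and 7791 CPM over the cut and 8598, 14511, 15944 and 13020.4 CPM under it. Cells in the top 8% of doublet scores were then left out of each library. The macrophage log2 ratio was -1.61 in that setting, and 36 of 37 genes were lower (8.60% of all genes).

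The 18 clusters included 3 of macrophages. Most macrophages, 460 cells in NT, 1892 in RT1, 1794 in RT2 and 1031 in RT3, were in a cluster led by Ccl8, C1qc and Folr2, where the 40 genes summed to 1637, 542, 408 and 509 CPM (log2 -1.76 ± 0.22). A shallow cluster led by the mast cell genes Cma1, Cpa3 and Mcpt4 with the macrophage marker Mrc1 had 2323, 1187, 1057 and 1332 CPM (log2 -0.97 ± 0.17). In both, NT was above every RT library. The smallest, led by Cd52 and Ftl1, had 840.0, 966, 763 and 923 CPM (log2 0.07 ± 0.18), and NT lay within the range of the RT libraries. Without the cluster led by mast cell genes, macrophages over the cut made up 14.9% in NT, 2.54% in RT1, 1.58% in RT2 and 1.83% in RT3. In the Ccl8 cluster, cells over the cut made up 16.3% in NT, 2.47% in RT1, 1.32% in RT2 and 1.65% in RT3.

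Other lists of the cell cycle were read in macrophages in the same way. Of the S phase genes, which copy DNA before mitosis, 27 of 39 tested were lower (7.74% of all genes) and 0 higher (11.6% of all genes), with a median log2 ratio of -1.29. Their sum was 2022 CPM in NT, 983 in RT1, 864 in RT2 and 1028 in RT3, and the ratio of the 40 genes to the S phase sum was 0.780, 0.612, 0.536 and 0.582, lower in every RT library than in NT. Rrm2, a subunit of the enzyme that makes deoxynucleotides, was among them with 93.8, 20.8, 23.5 and 29.7 CPM (log2 -1.94 ± 0.26). Of 30 other G2 and mitosis genes tested, 20 were lower and 1 higher (median -1.05, against the same 7.74 and 11.6% of all genes). Higher was Gtse1, a p53 regulator that is itself a p53 target, with 4.73, 10.1, 8.65 and 7.66 CPM (log2 0.89 ± 0.20) at few UMIs.

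Among 18 regulators of this program 8 were lower (Foxm1, Mybl2, Lin54, Fbxo5, Pkmyt1, Cdc25a, Chek1 and Cdkn3) and 1 was higher, beside 7.74% and 11.6% of all genes, with a median of -0.82. Foxm1, the activator of G2 genes, was at 20.9, 6.77, 4.59 and 5.63 CPM (log2 -1.90 ± 0.28), and Pkmyt1, a kinase that holds Cdk1 inactive, at 50.5, 5.28, 7.501 and 6.99 CPM (log2 -2.95 ± 0.27). Fbxo5, an inhibitor of the anaphase promoting complex, had 29.2, 4.93, 5.05 and 3.38 CPM (log2 -2.73 ± 0.33). For all of these NT was the highest library by a wide gap. Rbl2, which encodes the p130 subunit of DREAM, was the higher one, at 10.6, 28.6, 17.2 and 16.9 CPM (log2 0.93 ± 0.43). Among 13 G1 cyclins and CDK inhibitors tested, 5 were lower (Cdkn1b, Cdkn2c, Ccne1, Cdk2 and Cdk4) and 2 higher (Cdkn1a and Ccng1, both p53 targets), against the same 7.74 and 11.6%.

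Cdkn1a also differed between macrophages with many and few of these transcripts. Over all macrophages it was 309, 1346, 2046 and 1268 CPM (log2 2.29 ± 0.38), against 20.5, 45.3, 40.3 and 35.2 CPM in tumor cells. In macrophages over the cut it was 275, 854, 1316 and 660.1 CPM and under it 316, 1352, 2092 and 1280.2 CPM in NT, RT1, RT2 and RT3. In each library Cdkn1a was thus lower over the cut than under it, and over the cut it was higher in every RT library than in NT. In NT Cdkn1a differed least, at 275 CPM over and 316 CPM under the cut, and no interval is given for either value. In tumor cells it was higher over the cut than under it in each library, at 25.1, 49.3, 48.4 and 39.9 against 12.6, 34.7, 29.2 and 26.1 CPM. The RT macrophages over the cut are the cells with 552 to 865 CPM of tumor markers, fewer macrophage markers and 11.9 to 28.1% high doublet scores given above, and the part of these in their Cdkn1a level was not tested. These cells over the cut were few, 73 in NT, 42 in RT1, 32 in RT2 and 16 in RT3.

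**Figure D4:**
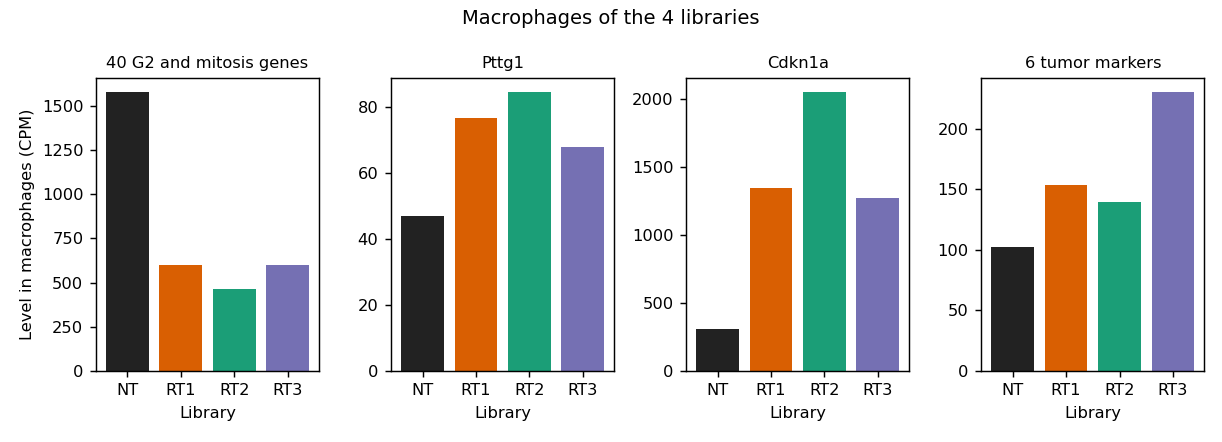
Levels in macrophages of NT, RT1, RT2 and RT3 (vertical axes, CPM, each panel from 0) of the 40 genes summed, Pttg1, Cdkn1a and the 6 tumor markers summed, 1 bar per library without error bars. The 40 genes are highest in NT, at 1577 CPM, whereas Pttg1, Cdkn1a and the tumor markers are lowest in NT, at 46.9, 309 and 102 CPM.

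Monocytes, the blood-derived relatives of macrophages, were marked by Chil3, Ly6c2, Thbs1 and Plac8. Their summed level was 668 ± 29.8 CPM (SD, n = 3) in RT against 747 CPM in NT (interval 693 to 805 CPM), a mean log2 ratio of -0.16 ± 0.06, and RT1 lay within the NT interval. Of 32 genes tested, 5 were lower (4.62% of all genes) and 2 were higher (15.4% of all genes). The 5 were Cenpe, Bub1b, Kif23, Nuf2 and Cks2, and the 2 were Ccnb2 and Hmmr. In NT, Cenpe, Bub1b, Nuf2, Ccnb2 and Hmmr were all under 20 UMIs. Cenpe of RT2 and RT3, Kif23 of RT1, Nuf2 of RT1 and Hmmr of RT2 lay inside their NT intervals. With cells of at most 10% mitochondrial UMIs the log2 ratio was 0.0368 and 1 gene was lower (4.27% of all genes), and without integration 10 were (4.53% of all genes). Median ratios were -0.17 over the 32 genes and 0.13 over all genes.

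Cks2, which binds Cdk1, was the most abundant of these genes in NT monocytes, at 111 CPM in NT, 41.5 in RT1, 39.8 in RT2 and 62.4 in RT3 (log2 -1.24 ± 0.36), with NT above every RT library. Kif23, a motor of the central spindle, had 27.5, 19.2, 15.8 and 15.3 CPM (log2 -0.72 ± 0.17). Top2a was 59.2, 48.7, 40.7 and 41.5 CPM (log2 -0.45 ± 0.14) and Birc5 40.2, 27.2, 36.3 and 35.9 CPM (log2 -0.29 ± 0.24), both below NT in each RT library without passing the rule. Cenpa, in contrast, was 57.1, 79.9, 70.4 and 81.9 CPM (log2 0.44 ± 0.12), above NT in each, and Pttg1 48.6, 52.95, 59.1 and 55.8 CPM (log2 0.20 ± 0.08), within its NT interval of 35.6 to 64.9 CPM.

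Of the other genes named in monocytes, Ccnb2 passed the rule. Cdk1 had 40.2, 42.4, 35.96 and 28.6 CPM (log2 -0.19 ± 0.28), Ccna2 27.5, 30.9, 25.5 and 22.7 CPM (log2 -0.07 ± 0.23), and the cytokinesis gene Racgap1 31.7, 32.6, 23.98 and 29.6 CPM (log2 -0.15 ± 0.23). All RT libraries were inside the NT intervals of 28.4 to 55.1 CPM, 17.95 to 40.3 CPM and 21.4 to 45.3 CPM. Mki67 was 19.03, 21.2, 16.5 and 20.2 CPM and Ccnb1 14.8, 18.9, 16.7 and 17.4 CPM. Plk1 was 13.7, 10.02, 14.1 and 8.72 CPM, Aurka 13.7, 13.2, 10.6 and 9.76 CPM and Aurkb 8.46, 22.3, 12.9 and 9.76 CPM. Ccnb2 had 8.46, 26.3, 23.5 and 16.7 CPM, Ube2c 12.7, 16.03, 34.4 and 13.6 CPM and Cdc20 2.11, 4.01, 4.17 and 2.44 CPM. Mki67 and the genes after it had 2 to 18 UMIs in NT. Of 29 S phase genes tested 7 were lower and 1 was higher (median -0.28), and of 12 regulators 3 were lower (Foxm1, Pkmyt1 and E2f1) and 1 was higher (Cdc25b), against 4.62% of all genes lower and 15.4% higher.

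Lymphocytes, named by granzymes, Nkg7 and T cell receptor genes, held 2924 ± 229 CPM (SD, n = 3) in RT against 3714 CPM in NT (interval 3588 to 3844 CPM), a mean log2 ratio of -0.35 ± 0.11. Every RT library was below the NT interval, over a mixture of subsets that did not all lie on the same side of NT, as given below. Of 36 genes tested, 9 were lower (5.16% of all genes) and 0 higher (6.83% of all genes), with medians of -0.42 over the 36 genes and -0.11 over all genes. The 9 were Aurka, Bub1b, Plk1, Kif20a, Kif20b, Spc24, Tpx2, Anln and Cdca8. With TMM factors 3 genes were lower, against 2.49% of all genes, at a log2 ratio of -0.22. At resolution 1.2, without the 8% highest doublet scores and as a mean over cells 5 were lower, against 5.65, 5.65 and 5.32% of all genes.

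Anln had the lowest ratio in lymphocytes, at 55.7 CPM in NT, 27.04 in RT1, 19.2 in RT2 and 35.05 in RT3 (log2 -1.08 ± 0.43), followed by Spc24 with 79.6, 30.9, 53.9 and 44.9 CPM (log2 -0.92 ± 0.41). Tpx2, which activates Aurka on the spindle, was 143, 72.1, 92.8 and 77.8 CPM (log2 -0.83 ± 0.19), and Nusap1 89.8, 48.9, 42.3 and 70.1 CPM (log2 -0.77 ± 0.37). NT was highest for each. Plk1 was 87.6, 50.2, 54.4 and 52.6 CPM (log2 -0.74 ± 0.06) and Aurka 45.5, 27.04, 30.8 and 29.6 CPM (log2 -0.65 ± 0.10), so both kinases passed the rule. Mki67 was 143, 78.5, 83.2 and 105 CPM (log2 -0.70 ± 0.22) and Top2a, the most abundant with Cenpa, 354, 255, 218 and 258 CPM (log2 -0.54 ± 0.14). NT exceeded every RT library for these as well, without passing the rule in all 3.

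Other genes of lymphocytes did not pass the rule. Cenpa was 354, 384, 357 and 348 CPM (log2 0.04 ± 0.07), Cks2 210.4, 198, 175 and 237 CPM (log2 -0.06 ± 0.22) and Cdk1 206, 196, 164 and 219 CPM (log2 -0.11 ± 0.21). The RT libraries of all of these overlapped the NT value. Ccnb2 was 90.98, 91.4, 76.01 and 71.2 CPM (log2 -0.20 ± 0.19), Ube2c 115, 73.4, 129 and 96.4 CPM (log2 -0.24 ± 0.41) and Aurkb 56.9, 50.2, 53.4 and 66.8 CPM (log2 -0.01 ± 0.22), each with at least 1 RT library above NT. Below NT in every RT library, without passing the rule, were Cdc20 at 43.2, 24.5, 30.8 and 21.9 CPM (log2 -0.76 ± 0.25), Birc5 at 246, 139, 180.4 and 210.3 CPM (log2 -0.50 ± 0.30), Ccna2 at 171, 125, 134 and 159.9 CPM (log2 -0.30 ± 0.18) and Ccnb1 at 83.02, 75.96, 59.7 and 71.2 CPM (log2 -0.28 ± 0.18). Kif23 had 62.6, 59.2, 52.9 and 81.05 CPM (log2 0.02 ± 0.32) and Cenpf 32.98, 41.2, 33.2 and 55.9 CPM (log2 0.36 ± 0.38), the highest ratio of these genes, with its RT values all at or above NT. Of 38 S phase genes tested 7 were lower and 0 higher (median -0.33), against 5.16% and 6.83% of all genes. Of 26 other G2 and mitosis genes 2 were lower (Lbr and Ncaph) and 2 higher (Gtse1 and Psrc1), of 10 regulators 2 were lower (Lin54 and Cdc25a) and 1 higher (Rbl2), and of 13 G1 cyclins and CDK inhibitors 2 were lower (Cdkn2c and Cdk2) and 2 higher (Cdkn1a and Ccng1).

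The lymphocytes were a mixture. After they were clustered again, CD8 T cells numbered 184 in NT, 115 in RT1, 263 in RT2 and 131 in RT3, and their sums were 3911, 2900.2, 2752 and 4295 CPM (log2 -0.27 ± 0.35), RT3 being above NT. NK cells numbered 108, 186, 239 and 146, and were 2169, 2721, 2686 and 2679 CPM (log2 0.31 ± 0.01), with every RT library above NT. CD4 T cells were few, 56, 22, 48 and 23 cells, at 5942, 1546, 3622 and 3688 CPM (log2 -1.11 ± 0.72), all RT libraries being below NT. The remaining lymphocytes took none of these names and held most Rhox5 UMIs. Of 249, 196, 395 and 287 Rhox5 UMIs in NT, RT1, RT2 and RT3, CD8 T cells held 14, 17, 33 and 19. NK cells held 11, 23, 29 and 14, and CD4 T cells 9, 2, 6 and 3. Of 3266 UMIs of the 40 genes in NT lymphocytes, CD8 T, NK and CD4 T cells held 1233, 468 and 651. The lymphocyte ratio includes the remaining cells. The subsets also took different shares of the lymphocytes in each library, so the ratio over all lymphocytes mixes levels within subsets with their sizes. Shares of lymphocytes over the cut were 48.6% in NT, 39.5% in RT1, 28.7% in RT2 and 44.6% in RT3, with wide intervals, and without thinning 25.6% in NT, 22.8% in RT1, 27.6% in RT2 and 30.7% in RT3, where the RT libraries lay on both sides of NT. Which way lymphocytes differed by this measure therefore depended on the treatment of depth.

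**Figure D5:**
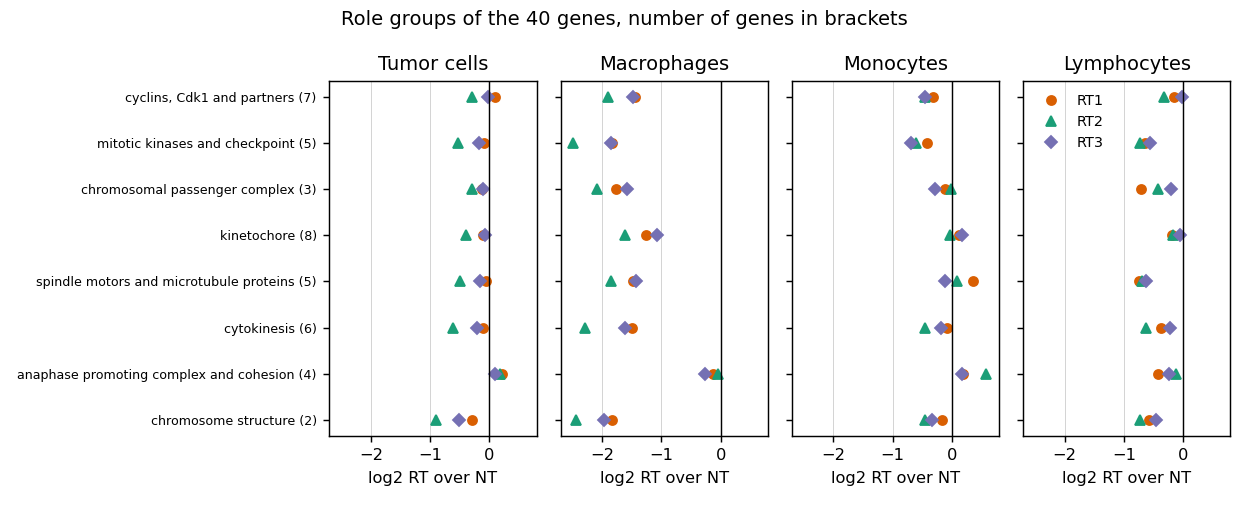
log2 ratio of RT1, RT2 and RT3 over NT (horizontal axis) of the summed CPM of each role group of the 40 genes in 4 populations, 1 symbol per library. In macrophages 7 of the 8 groups lie left of -1 in every library, with means of -2.08 to -1.32, and the anaphase promoting complex and cohesion group has a mean of -0.15.

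Role groups set the populations side by side. In macrophages the mitotic kinases and checkpoint genes summed to 132, 36.8, 23.5 and 36.5 CPM (log2 -2.06 ± 0.37), the chromosome structure genes to 199, 56.2, 36.9 and 50.7 CPM (log2 -2.08 ± 0.32), and the kinetochore genes to 211, 88.3, 69.1 and 100.1 CPM (log2 -1.32 ± 0.27). NT stood above the RT libraries in all 3 groups. The anaphase promoting complex and cohesion group, 108, 98.4, 105 and 89.7 CPM (log2 -0.15 ± 0.12), was close to NT, and Pttg1 was its most abundant gene in each library. In lymphocytes the lowest ratio was that of the spindle motors and microtubule proteins, at 353, 209.9, 218 and 228 CPM (log2 -0.69 ± 0.06), and the kinetochore genes were closest to NT (log2 -0.13 ± 0.08). In monocytes the mitotic kinases and checkpoint genes were lowest (log2 -0.57 ± 0.14), and the anaphase promoting complex and cohesion group was above NT (log2 0.31 ± 0.23). Whether the ratios of the groups differ was not tested.

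Smaller populations gave sums at low depth. Dendritic cells held 2003, 1396, 953 and 1922 CPM from 78, 133, 210 and 140 cells, and fibroblasts 1075, 822, 665 and 1088 CPM from 17, 83, 124 and 178 cells. Endothelial cells held 2051, 1735, 1446 and 1728 CPM from 33, 99, 133 and 33 cells. In dendritic cells and endothelial cells every RT library was below NT, and in fibroblasts RT3 was level with it. Dendritic cells of RT3 lay inside their NT interval of 1807 to 2215 CPM. For endothelial cells the intervals of RT1 (1599 to 1879 CPM) and RT3 (1501 to 1980 CPM) overlapped that of NT (1842 to 2278 CPM). Tumor markers in fibroblasts were at 1.72, 31.5, 40.8 and 18.6% of the tumor cell level and in endothelial cells at 1.62, 14.5, 7.96 and 23.03%, lower in NT than in each RT library. Their part in these levels was not tested.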

How the data were processed

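Suspensions of dissociated tumors were made into SeekOne MM 3' libraries and sequenced on an Illumina NovaSeq. The authors deposited UMI counts per gene and cell barcode, as raw counts without normalization, after the SeekOne Tools pipeline. The submitters' processing notes name STAR 2.5.1b, Subread 1.6.4, featureCounts, Cell Ranger and the build GRCm39 (mm39) without their roles, and filters on barcodes were not given in the sources used here. Why the table of RT2 differs from the others is not given there either.

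The members, the lists of other genes and the markers were chosen with earlier results of these data known. Cells with at least 200 genes and at most 20% mitochondrial UMIs were scaled to 10000 UMIs, and 2000 variable genes without cell cycle genes gave 30 principal components. These were integrated over libraries by a Python rewrite of Harmony (theta 2), joined to 20 neighbours and clustered by Leiden (resolution 0.8) with scanpy 1.11.5 and leidenalg 0.10.2 in Python 3.11.15. A cluster took the type with the highest marker levels when at least 3 of that type's markers stood above the mean of clusters and its top 10 genes by fold held no more markers of another type than of its own. A shallow cluster with none of its type's markers there stayed unnamed. Genes outside the marker lists did not count in this, so a cluster led by mast cell genes was named macrophages, and 3 of 18 clusters stayed unnamed. These names were rebuilt from the counts and may differ from the study's. Doublets were not removed for the reported values. A caller marked 1.18, 3.03, 3.45 and 2.54% of NT, RT1, RT2 and RT3 cells.

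UMIs were summed per library and population and divided by the population's total (CPM). Poisson and binomial intervals are exact, at 95%, and cover counting error only. NT was 1 library and was tested against nothing, and a call between NT and RT needed a log2 ratio past 0.5 in all 3 RT libraries. Cell types were compared with edgeR 4.0.16 (quasi-likelihood, TMM, filterByExpr, adjusted p threshold 0.05) in R 4.3.3, a script tested on simulated data. The library was a block because both populations of a pair came from the same library, and DESeq2 1.42.0 was an alternative. Genes named in a population were the 4 highest in NT, the 4 lowest and the 4 highest ratios among those with at least 20 UMIs in every library, and a standing set of 12 (Mki67, Top2a, Cdk1, Ccnb1, Ccnb2, Ccna2, Cdc20, Plk1, Aurka, Aurkb, Birc5 and Ube2c). In each test, the 3 largest and the 3 smallest differences were named, and promoters were those of the 3 highest genes and the lowest and highest ratio in tumor cells, where a window was found. Other genes named in the text were chosen after their values were seen. Alternatives covered scaling, cell filters, resolution, integration, doublets, the size of a call, thinning and leaving out each library. The edgeR fits on total UMIs and without high doublet scores, the tumor cells with the Ramp2, Islr and Lum cluster, and the macrophages without the cluster led by mast cell genes, were added after seeing the data. RefSeq windows (GRCm38.p6) served for letters and their own coordinates only.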

Additional observations from a re-analysis of the deposited data

Results flagged for a closer look

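Some genes lay on opposite sides of NT in different populations, with all 3 RT libraries at or above NT in the first and all 3 below NT in the second. In tumor cells, Ndc80 and Ccnb2 of RT2 were level with NT. The difference between the 2 mean log2 ratios was 1.93 for Ube2c, 1.77 for Ndc80 and 1.06 for Ccnb2 between tumor cells and macrophages. Between lymphocytes and macrophages it was 1.06 for Cenpf, and between monocytes and macrophages 1.62 for Cenpa. The summed 40 genes differed by 1.83 between NK cells and macrophages and by 1.81 between neutrophils and macrophages, where NT neutrophils were 20 cells. These differences were not tested, as all ratios of a population share its single NT library.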

How the results depend on the processing

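The macrophage log2 ratio of the summed 40 genes was -1.66 to -1.18 over all alternatives that keep the 3 RT libraries, the latter as a mean over cells in which shallow cells weigh as much as deep ones, and 25 to 36 genes were lower (2.24 to 16.6% of all genes). With 1 RT library left out it was -1.58 to -1.39, with 32 to 34 genes lower (9.34 to 10.8% of all genes). The macrophage share in RT minus that in NT was -13.5 percentage points, and it was -10.8 (1000 UMIs, at least 3 UMIs of the 40 genes), -14.2 (2000, at least 3), -8.83 (2000, at least 10) and -12.9 without the cluster led by mast cell genes (chosen after seeing the data).

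In tumor cells 1 gene was lower (1.46% of all genes), against 2 at resolution 1.2 (1.65%). With the Ramp2, Islr and Lum cluster counted as tumor cells (chosen after seeing the data) 2 were lower (1.82% of all genes). Without the 8% highest doublet scores 0 were lower (1.48%). At a log2 size of 0.25 it was 6 (7.37% of all genes), and at 1 it was 0 (0.154%). Leaving out an RT library gave 1 to 2, with 2 when RT2 was left out (5.23% of all genes). With that cluster, Pttg1 of tumor cells against macrophages had log2 -0.00774. The tumor cell share, -0.694 points, was -3.80 to 3.25 with 1 RT library left out, 3.25 without RT2, -5.86 with that cluster and -4.18 at resolution 1.2.

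The monocyte log2 ratio of -0.16 was -0.23 with TMM factors, 0.0368 at most 10% mitochondrial UMIs, -0.33 at 500 genes per cell, -0.43 at resolution 0.4, -0.31 at 1.2 and -0.42 without integration. The 5 lower genes became 1 at most 10% mitochondrial UMIs (4.27% of all genes), 9 at resolution 0.4 (4.97%) and 10 without integration (4.53%). The count was 3 with cell cycle genes kept in (4.33% of all genes), 8 at log2 0.25 (10.8%) and 0 at log2 1 (0.869%). With 1 RT library left out it was 5 to 8 (8 without RT1, where 6.23% of all genes were lower). The monocyte share, -2.17 points, was -0.39 unthinned, -3.11 at resolution 0.4 and -6.22 at 1.2. In lymphocytes the log2 ratio of -0.35 was -0.22 with TMM factors, and the 9 lower genes became 3 with TMM factors, 5 at resolution 1.2, without high doublet scores or as a mean over cells, 17 at log2 0.25 (17.03% of all genes) and 0 at log2 1 (0.409%). Their share, -10.9 points, was -1.62 at 1000 UMIs with at least 3 and turned to 1.48 unthinned. With 1 RT library left out it was -14.4 to -6.50, the latter without RT2. The causes were not tested.

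Without the library block (the pairing of populations), 38 genes were higher in tumor cells than in macrophages in place of 39. Of all genes, 4717 were higher in place of 5231. In lymphocytes 34 were higher than in macrophages in place of 37, beside 2501 of all genes in place of 2973. Between macrophages and monocytes 0 and 0 passed in place of 1 higher and 2 lower. Of all genes, 998 were higher and 877 lower there, in place of 2228 and 2076. The comparison of macrophages with monocytes gave 0 higher and 1 lower by DESeq2, beside 1588 higher and 1653 lower of all genes. It gave 2 higher without a filter (2694 of all genes) and 2 higher at resolution 1.2 (2110 of all genes). At resolution 0.4 it gave 4 lower (2215 of all genes). Leaving out 1 library gave 0 to 1 higher (0 without RT1, beside 1573 of all genes) and 1 to 10 lower. It was 1 lower without RT1, RT2 or RT3 (1443, 1538 and 1623 of all genes) and 10 without NT (2351 of all genes). Lymphocyte Pttg1 against macrophages had log2 -0.0643 to 0.324 with 1 library left out, the former without NT. Of the other values, 188 that answer a comparison and 1129 of single genes kept their side, 95 of single genes moved, 12 passed and 14 lost the threshold of their test.

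Depth limits lymphocytes, monocytes and the smaller populations, and the single NT library limits every ratio.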

Other observations

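The clusters without a name also held these transcripts. A shallow cluster led by Malat1 and Cenpe, with a median of 871 to 991 UMIs per cell, had sums of 5961, 5732, 4039 and 5442 CPM in NT, RT1, RT2 and RT3, above tumor cells in NT, RT1 and RT3, and RT2 was again the lowest library. A cluster led by Chil3 and Cxcl3 that also carried tumor markers had 3887, 3422, 2332 and 3424 CPM, below NT in each RT library. The cluster led by Ramp2, Islr and Lum had 1470, 1165, 524 and 1522 CPM, with RT3 above NT and RT2 far below it.

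Neutrophils, which do not divide, were at 1918, 2681, 2242 and 2152 CPM from 20, 177, 248 and 119 cells. Their tumor markers stood at 44.9, 56.3, 45.9 and 63.9% of the tumor cell level. The part of tumor RNA in their levels was not tested.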
